A study of Mus musculus with 14 samples.

Results

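Skeletal muscle of EC-Myc OE mice on western diet (OE-WD) was compared with muscle of CT mice on control diet (CT-CTD), across all expressed genes. Libraries were taken by their labels, which give 4 replicates of OE-WD and 3 of CT-CTD, 7 of the 14 libraries of the series. The study asked how endothelial c-Myc bears on obesity and the metabolic and vascular complications that go with it, and sequenced muscle RNA to read the response to genotype and diet. By their labels, the remaining libraries came from CT mice on WD (CT-WD, 3) and EC-Myc OE mice on CTD (OE-CTD, 4). Those names may be exchanged, as described below. All the mice were FVB/N males. EC-Myc OE mice carried Tet-O-Myc, a human c-Myc transgene on the Y chromosome, together with Cdh5-tTA, a transactivator that the promoter of the endothelial cadherin gene Cdh5 drives in endothelial cells of any organ. In CT mice, which came from the same litters, Tet-O-Myc was present alone, with no Cdh5-tTA. Doxycycline food kept the transgene off until it was withdrawn at 4 to 6 weeks of age, and by the labels CTD or a high-fat WD was then given for 20 weeks in all, while the study's text gives a shorter time for the transcriptome. The age at harvest is not given. The RNA was of soleus and gastrocnemius by the study's methods, the labels name only skeletal muscle, and poly-T beads selected polyadenylated RNA. OE-WD and CT-CTD differ in genotype and in diet, so in this pair the effects of the transgene and of the diet cannot be told apart.

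c-Myc is a transcription factor that binds E-box sequences with its partner Max and drives genes of ribosome assembly, nucleotide and polyamine synthesis and cell growth. In muscle, capillary endothelial cells lie against the fibres, and both rest on basement membranes of type IV collagen, laminins, nidogens and perlecan. A diet rich in fat raises the supply of fatty acids to muscle, where PPAR receptors switch on genes of fatty acid uptake and oxidation.

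The depth was 24807368, 24101226 and 25054855 counts in CT-CTD 1 to 3 and 25281275, 27115249, 22033140 and 27698046 counts in OE-WD 1 to 4. Between 19780 and 20576 genes were detected in each of these libraries. Genes of the mitochondrial genome took 11.96, 10.1 and 10.6% of the counts in CT-CTD and 12.1, 11.3, 10.9 and 14.5% in OE-WD. OE-WD 4 was highest in that share and also had the smallest TMM factor of the 7 libraries, 0.899 against 0.992 to 1.07. On the first principal component of the 1000 most variable genes, which held 35.5% of their variance, CT-CTD 1 and OE-WD 1 lay close together at 2.79 and 2.47. The other libraries lay further apart, CT-CTD 2 and 3 at -24.6 and -22.3 and OE-WD 2 to 4 at 23.6, 21.6 and 9.40. The labels do not say whether the replicates of a group are separate animals, so the p-values measure the spread between these samples, which may be technical. The sample codes of the 4 OE-WD libraries share one number while each CT-CTD library has its own, and the labels do not say what the number stands for.

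Mouse Myc (ENSMUSG00000022346, chromosome 15, 61985391 to 61990374, plus strand, build GRCm38) stood at 4.59, 6.11 and 4.45 CPM in CT-CTD and 9.03, 5.61, 5.74 and 5.22 CPM in OE-WD, where CPM are counts scaled to library size with TMM factors. Each group's values are given in the order of its replicate numbers. OE-WD 1 was the highest library, the other OE-WD libraries lay within the range of CT-CTD, and the groups overlapped. The difference did not pass edgeR's test (log2 fold change 0.34, SE 0.32, edgeR adjusted p = 0.665). The human transgene has no entry in the gene table, so its level was not measured here, and the group labels could not be checked against it. The tissue label was checked against fibre markers. Summed over 14 fast fibre genes, the level was 151537, 163843 and 148359 CPM in CT-CTD and 148112, 143853, 140247 and 184345 CPM in OE-WD, and over 11 slow fibre genes 6273, 5061 and 7253 CPM in CT-CTD and 7209, 6961, 6235 and 7304 CPM in OE-WD. Per length, fast troponin T (Tnnt3) led the fast list at a mean of 10438 FPKM and the light chain Myl3 the slow list at 376 FPKM, so fast fibre transcripts dominated every library. Among fast fibre genes 0 of 14, and among slow fibre genes 0 of 11, were altered in edgeR's test or passed at the unadjusted level, and DESeq2 and limma on FPKM called 0 in either list. The medians of the log2 fold changes were -0.02 and 0.09, and 0.06 and -0.04 without CT-CTD 2. Of the 4 Y-linked genes in the table, 4 were detected, 0 were altered by edgeR, DESeq2 or limma and 0 passed at the unadjusted level, with a median of -0.07. Ddx3y, the most abundant of them by FPKM, was at 75.5, 88.5 and 86.6 CPM in CT-CTD and 83.8, 78.3, 81.0 and 79.2 CPM in OE-WD.

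Of 15458 genes tested, 191 were altered between OE-WD and CT-CTD (1.24%), 139 of them higher in OE-WD (0.899%) and 52 lower (0.336%). A gene was called altered at a fold change over 1.5 with an adjusted p-value under 0.05 in edgeR's quasi-likelihood test. At an unadjusted p-value under 0.05 the same fold limit took 1109 genes (7.17%), 854 higher (5.52%) and 255 lower (1.65%). The increases had a median fold of 1.78 and 37 exceeded 2-fold, while the decreases had a median fold of 2.0 and 26 exceeded 2-fold. Among the altered genes 179 were protein coding, 137 of those that rose and 42 of those that fell. In 189 of the 191 the OE-WD and CT-CTD libraries did not overlap, against 2573 of all tested genes (16.6%, 9.41% higher and 7.23% lower), and the exceptions were Tekt1 and Tmsb10, named here after their values were seen. The calls were made on these same libraries, so the lack of overlap is not separate evidence for them. The median log2 fold change of all tested genes was -0.01. The genes that rose included components of basement membrane and the endothelial genes Tek and Mmrn2, and the genes that fell included the fibre genes Syne1 and Mettl21c, the sphingosine phosphate transporter Spns2, ornithine decarboxylase Odc1 and spermine oxidase Smox.

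The number of altered genes rested on single libraries. It was 34 without CT-CTD 2, 17 without CT-CTD 3, 40 without OE-WD 2, 93 without OE-WD 3, 94 without OE-WD 4 and 380 without CT-WD 1. The higher genes among these were 21, 9, 25, 63, 67 and 308 in that order, and the lower genes alone went from 52 to 90 without CT-CTD 1. Of the genes altered in OE-WD relative to CT-CTD, 8 were called whichever of the 14 libraries was left out: Ltbp4, Syne1, Axl, Spns2, Lama4, Fam129b, Mettl21c and 4931413K12Rik. Of these, Ltbp4, Axl, Fam129b and 4931413K12Rik lie outside the rule for named genes and are named after their values were seen. The share of higher genes among the calls also moved with the scaling: 72.8% with TMM, but 25 of 48 (52.1%) with library totals alone. The replicate numbers did not pair the libraries, since the deviations from the group means correlated across genes at -0.08, -0.09 and -0.01 for numbers 1 to 3.

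**Figure D1:**
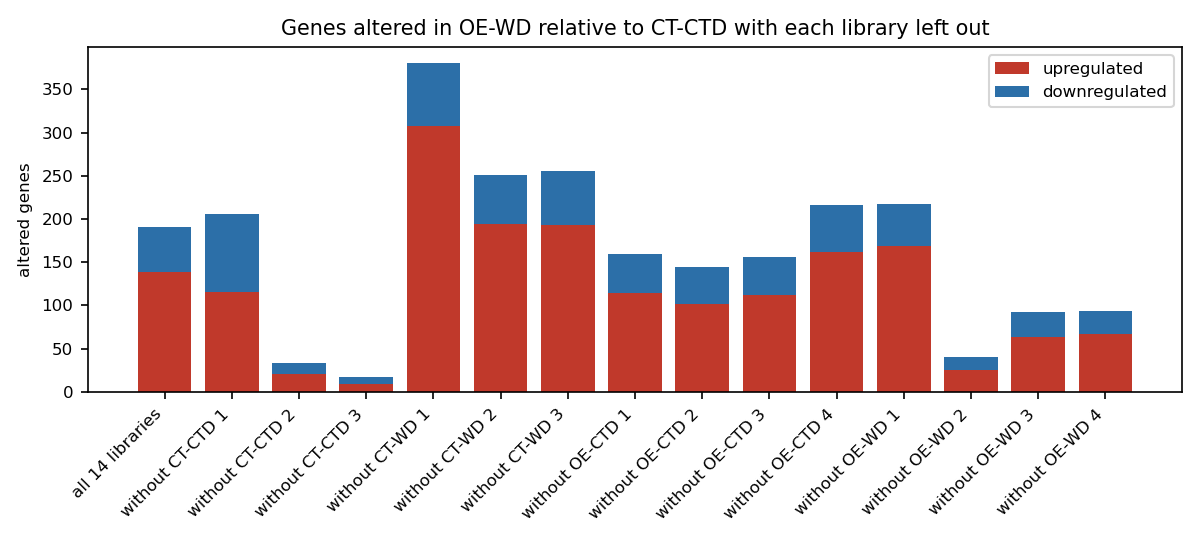
Number of altered genes in OE-WD relative to CT-CTD when each of the 14 libraries is left out in turn, split into higher and lower genes. The count runs from 17 without CT-CTD 3 to 380 without CT-WD 1, against 191 with every library.

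Basement membrane genes were higher in OE-WD. Of 13 tested, 7 rose, against 0.899% of all genes, 8 passed upward at the unadjusted level, against 5.52%, and in 13 of 13 each OE-WD library exceeded each CT-CTD library, against 9.41% of all genes. The median log2 fold change was 0.71, against -0.01 over all tested genes. Summed over the basement membrane genes, the level was 902, 944 and 967 CPM in CT-CTD and 1174, 1696, 1282 and 1701 CPM in OE-WD, with OE-WD 2 and 4 above OE-WD 1 and 3. Type IV collagen alpha 1 (Col4a1, ENSMUSG00000031502, chromosome 8, 11198423 to 11312826, minus strand) stood at 121, 133 and 121 CPM in CT-CTD and 163, 285, 183 and 264 CPM in OE-WD (log2 fold change 0.84, SE 0.16, edgeR adjusted p = 0.0218). Its partner chain Col4a2 (ENSMUSG00000031503, chromosome 8, 11312805 to 11449287, plus strand) stood at 111, 120.5 and 108 CPM in CT-CTD and 155, 252, 179 and 241 CPM in OE-WD (log2 fold change 0.87, SE 0.15, edgeR adjusted p = 0.0113). In both genes OE-WD 2 and 4 were the highest libraries, and the groups did not overlap. The pair is transcribed in opposite directions from neighbouring starts and the annotated genes share bases, and the strand setting of the counting is not stated, so part of either count may belong to the other gene. Laminin alpha 4 (Lama4), the laminin chain of vessel walls, stood at 14.8, 19.2 and 17.6 CPM in CT-CTD and 26.2, 35.1, 27.6 and 31.9 CPM in OE-WD (log2 fold change 0.82, SE 0.12, edgeR adjusted p = 0.00630), with each OE-WD library above each CT-CTD library. The other members that rose are named after their values were seen. They were Col15a1 (log2 fold change 1.21, edgeR adjusted p = 0.0411), Col18a1 (log2 fold change 0.85, edgeR adjusted p = 0.0295), laminin beta 1 Lamb1 (log2 fold change 0.78, edgeR adjusted p = 0.0258) and nidogen 2 Nid2 (log2 fold change 0.71, edgeR adjusted p = 0.0317). Perlecan (Hspg2), also named after its values were seen, stood at 187, 198 and 225 CPM in CT-CTD and 248, 314, 253 and 380.5 CPM in OE-WD and passed edgeR's adjusted level under the fold limit (log2 fold change 0.56, edgeR adjusted p = 0.0482). DESeq2 called 8 basement membrane genes, limma on FPKM 5, and edgeR 2 with library totals alone and 2 with replicate number as a block. The count of 7 dropped to 4 without CT-CTD 1, 2 without CT-CTD 2, OE-WD 2 or OE-WD 4, and 1 without CT-CTD 3. Lama4 kept its call in each of these, Col4a2 lost it without CT-CTD 3 (edgeR adjusted p = 0.0721), and Col4a1 lost it without CT-CTD 2, CT-CTD 3, OE-WD 2 or OE-WD 4 (edgeR adjusted p up to 0.113). The Col4a1 call was also absent in edgeR on the 7 libraries alone, with library totals alone and with the block, and the Lama4 call in limma on FPKM.

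The 300-base promoter windows of Col4a1 and Col4a2 overlap by 78 bases, and the Col4a2 window is shown because both of these neighbouring genes rose. It lies at chr8:11312555-11312854 on the plus strand of GRCm38.p6 in the RefSeq table, and the Col4a1 window at chr8:11312777-11313076 on the minus strand. Capitals mark positions 223 to 300, the bases that both windows hold, and 73.7% of the Col4a2 window is G or C.
Col4a2 promoter: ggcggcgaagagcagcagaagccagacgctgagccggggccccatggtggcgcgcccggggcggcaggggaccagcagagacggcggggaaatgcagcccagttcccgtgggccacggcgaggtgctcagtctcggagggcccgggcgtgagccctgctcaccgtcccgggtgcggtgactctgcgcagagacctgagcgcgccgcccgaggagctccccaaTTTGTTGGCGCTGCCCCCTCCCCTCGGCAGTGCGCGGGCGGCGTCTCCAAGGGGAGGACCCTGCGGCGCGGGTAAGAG

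**Figure D2:**
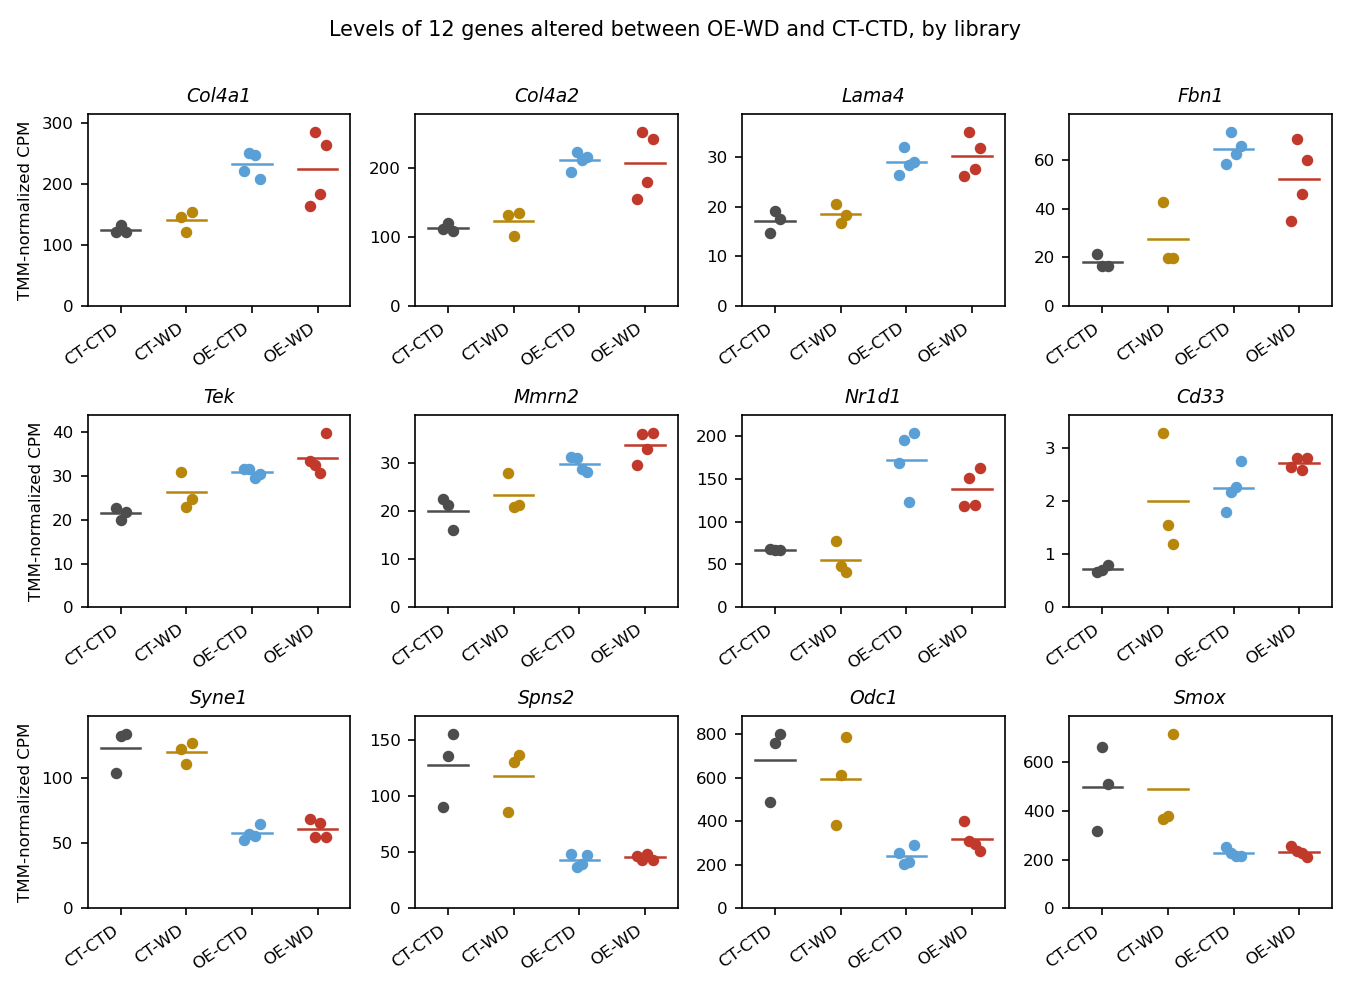
Level of 12 altered genes in each of the 14 libraries, in TMM-normalized CPM from 0, with a point for each library and a line at each group's mean. The Syne1 values run from 104 to 134 CPM in CT-CTD and from 55.1 to 68.7 CPM in OE-WD.

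Fibrillar collagen and matrix genes were higher in OE-WD in 19 of 19, with a median log2 fold change of 1.06, but 1 rose by the adjusted test, while 15 passed upward at the unadjusted level and 14 had groups that did not overlap. Among all genes the upward shares were 0.899, 5.52 and 9.41%. The member that rose was fibrillin 1 (Fbn1), a scaffold of microfibrils, at 21.4, 16.3 and 16.6 CPM in CT-CTD and 34.8, 68.6, 46.1 and 59.9 CPM in OE-WD (log2 fold change 1.53, SE 0.30, edgeR adjusted p = 0.0295). OE-WD 2 was its highest library, OE-WD 1 its lowest of that group, and the groups did not overlap. The spread within OE-WD was wide in collagen genes: Col1a1, named after its values were seen, stood at 99.9, 69.4 and 72.9 CPM in CT-CTD and 194, 616, 306 and 254 CPM in OE-WD (log2 fold change 2.09, edgeR adjusted p = 0.158). Summed over the fibrillar collagen and matrix genes, the level was 1052, 960.1 and 871 CPM in CT-CTD and 1600.4, 3470.5, 2068 and 1798 CPM in OE-WD. DESeq2 called 10 of the 19 and limma on FPKM 1. The shares above are those of the main edgeR fit, and DESeq2 and edgeR without CT-WD 1 called more genes over all tested genes. With edgeR the count was 0 without CT-CTD 2, CT-CTD 3, OE-WD 2, OE-WD 3 or OE-WD 4, 3 without OE-WD 1, 4 without CT-WD 2 and 11 without CT-WD 1, and the adjusted p of Fbn1 in edgeR's test reached 0.145 without CT-CTD 3. The count was also 0 without a filter on low counts, with library totals alone and with the replicate block. Outside the list and named after their values were seen, the TGF-beta binding protein Ltbp4 stood at 136, 157 and 142 CPM in CT-CTD and 241, 323, 268 and 255 CPM in OE-WD (log2 fold change 0.91, SE 0.12, edgeR adjusted p = 0.00366), with groups far apart. The collagen chaperone Serpinh1 (log2 fold change 0.93, edgeR adjusted p = 0.0373), the procollagen protease Bmp1 (log2 fold change 0.71, edgeR adjusted p = 0.0138), Col6a3 (log2 fold change 0.90, edgeR adjusted p = 0.0260), tenascin X Tnxb (log2 fold change 0.96, edgeR adjusted p = 0.0154) and the elastic fibre protein Fbln5 (log2 fold change 0.68, edgeR adjusted p = 0.0277) also rose and were likewise picked on their values.

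Markers of the matrix-forming cells of muscle were higher as well. Of 8 fibro-adipogenic cell markers 8 were higher and 2 rose, 4 passed upward at the unadjusted level, 5 had groups that did not overlap, and the median log2 fold change was 0.83. The upward shares of all genes at those levels were 0.899, 5.52 and 9.41%. Pi16, a marker of adventitial fibroblasts, stood at 28.2, 24.3 and 24.8 CPM in CT-CTD and 51.4, 54.3, 46.4 and 38.2 CPM in OE-WD (log2 fold change 0.89, SE 0.16, edgeR adjusted p = 0.0160), with no overlap. The receptor Pdgfra, which defines these cells, stood at 12.3, 12.01 and 9.53 CPM in CT-CTD and 18.2, 26.5, 17.9 and 18.8 CPM in OE-WD (log2 fold change 0.85, SE 0.20, edgeR adjusted p = 0.0468), with OE-WD 2 above the rest. Summed, the fibro-adipogenic cell markers were at 822, 656 and 589 CPM in CT-CTD and 1043, 1671, 1178.9 and 795 CPM in OE-WD, with gelsolin (Gsn) the most abundant by FPKM, and OE-WD 4 lay inside the range of CT-CTD. Of 9 tendon markers 9 were higher and 7 had groups that did not overlap (9.41% of all genes upward), with a median of 1.85, but edgeR altered 0, while 5 passed upward at the unadjusted level (5.52% of all genes), DESeq2 called 1 and limma 0. The tendon markers summed to 259, 109 and 176 CPM in CT-CTD and 457, 969, 631 and 335 CPM in OE-WD, led by fibromodulin (Fmod) at 123, 34.4 and 72.6 CPM in CT-CTD and 213, 473, 312 and 153 CPM in OE-WD. Thbs4, a thrombospondin of tendon, stood at 86.6, 54.3 and 69.6 CPM in CT-CTD and 151, 267, 177 and 113 CPM in OE-WD and did not pass (log2 fold change 1.33, edgeR adjusted p = 0.121). In bulk tissue, more or fewer cells of a type and more or less RNA per cell cannot be told apart, and the part of fibroblast or tendon RNA in the matrix result was not tested. The count of fibro-adipogenic cell markers was 1 without CT-CTD 1, any 1 OE-CTD library, OE-WD 1, OE-WD 3 or OE-WD 4, and 0 without CT-CTD 2, CT-CTD 3 or OE-WD 2. Pdgfra lost its call without any 1 library of CT-CTD, OE-CTD or OE-WD (edgeR adjusted p up to 0.209), and Pi16 without CT-CTD 2, CT-CTD 3 or OE-WD 2 (edgeR adjusted p up to 0.0988). Library totals alone ended both calls, and that of Pdgfra was also absent without a filter on low counts, in limma on FPKM and with the replicate block. Without CT-WD 1 edgeR called 3 tendon markers.

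Endothelial cell markers, the genes of the cells that carry the active transgene, were higher in 22 of 25. Their median log2 fold change was 0.42, from 0.36 to 0.43 over the alternatives tried, 14 had groups that did not overlap, 2 rose, and 2 passed upward at the unadjusted level. Of all genes 9.41%, 0.899% and 5.52% did so upward. Tek, the angiopoietin receptor, stood at 22.7, 20.0 and 21.8 CPM in CT-CTD and 33.5, 32.6, 30.8 and 39.9 CPM in OE-WD (log2 fold change 0.67, SE 0.11, edgeR adjusted p = 0.00971). Mmrn2, a matrix protein of endothelial junctions, stood at 22.6, 21.3 and 16.2 CPM in CT-CTD and 29.6, 36.2, 32.9 and 36.3 CPM in OE-WD (log2 fold change 0.75, SE 0.13, edgeR adjusted p = 0.0109). In both genes every OE-WD library lay above every CT-CTD library. Cdh5, the most abundant of the endothelial cell markers by FPKM and the gene whose promoter drives the transactivator, stood at 80.8, 74.6 and 79.6 CPM in CT-CTD and 107, 117, 117 and 106 CPM in OE-WD. Its groups were apart by more than the spread within them, and it passed edgeR's adjusted level under the fold limit (log2 fold change 0.51, SE 0.09, edgeR adjusted p = 0.0121), as did Pecam1 (log2 fold change 0.40, edgeR adjusted p = 0.0482), Tie1 (log2 fold change 0.47, edgeR adjusted p = 0.0423) and the guidance receptor Robo4 (log2 fold change 0.46, edgeR adjusted p = 0.0293). Summed, the endothelial cell markers were at 804, 813 and 859 CPM in CT-CTD and 1011, 1025, 1042 and 1034 CPM in OE-WD, so the 4 OE-WD libraries lay close together and above the 3 of CT-CTD. DESeq2 called 2 endothelial cell markers and limma on FPKM 1, without Tek. The count was 1 without CT-CTD 2, 0 without CT-CTD 3 and 3 without OE-WD 1, with Tek at an edgeR adjusted p up to 0.0635 and Mmrn2 at 0.0635. Outside the list some genes were picked because they rose, so no share can be set beside them, and not all are particular to endothelial cells: the receptor kinase Axl stood at 30.5, 31.9 and 32.2 CPM in CT-CTD and 53.2, 80.3, 59.9 and 67.6 CPM in OE-WD (log2 fold change 1.05, SE 0.15, edgeR adjusted p = 0.00466), and the caveolar protein Ehd2 at 75.7, 86.1 and 76.9 CPM in CT-CTD and 114, 126, 115 and 132 CPM in OE-WD (log2 fold change 0.61, SE 0.09, edgeR adjusted p = 0.00466). Neither gene's groups overlapped. Angiotensin converting enzyme Ace (log2 fold change 0.65, edgeR adjusted p = 0.0116), the surface sialomucins Cd34 (log2 fold change 0.68, edgeR adjusted p = 0.0260) and Podxl (log2 fold change 0.68, edgeR adjusted p = 0.0255) and the VEGF co-receptor Nrp2 (log2 fold change 0.65, edgeR adjusted p = 0.0318) were picked in the same way. Among 14 angiogenic ligands and receptors edgeR altered 0, 1 passed upward at the unadjusted level (5.52% of all genes) and DESeq2 and limma called 0. The median in this list was 0.26.

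**Figure D3:**
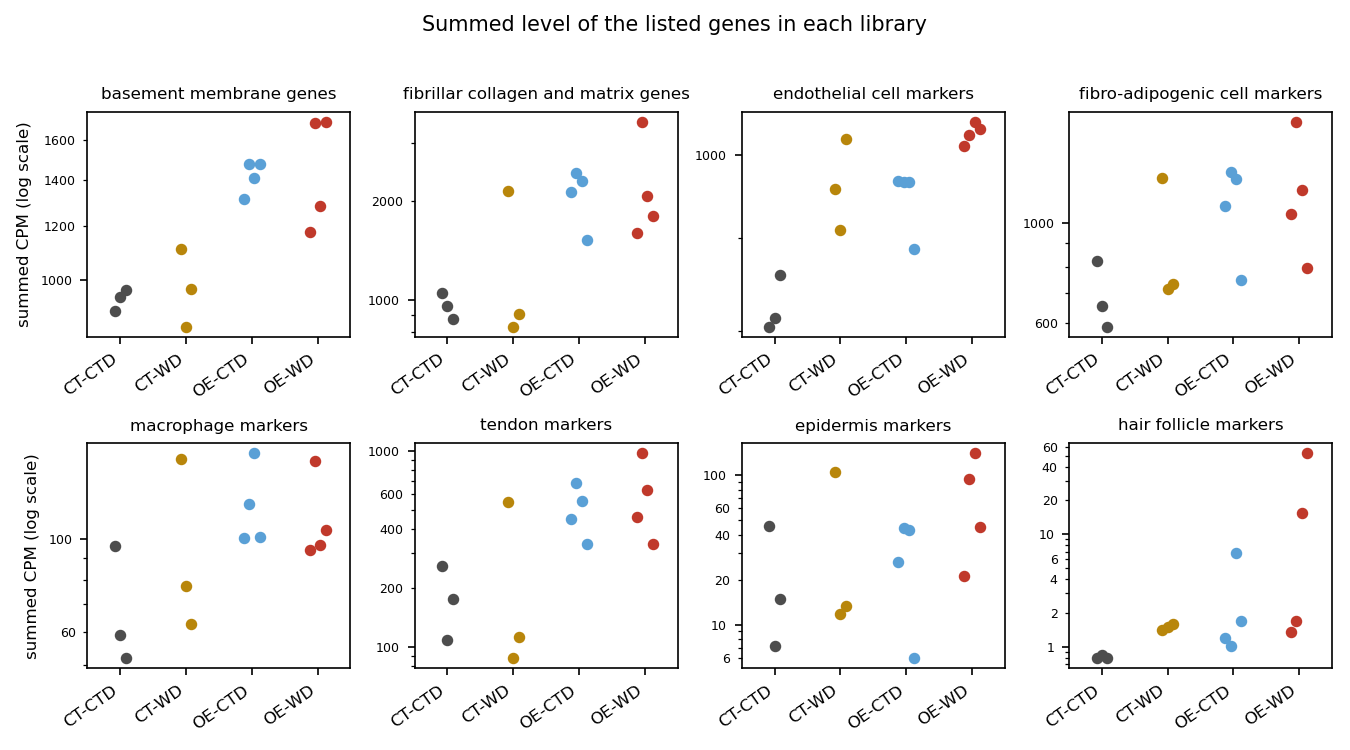
Summed level of 8 gene lists in each of the 14 libraries, in CPM on a log axis, with a point for each library. The basement membrane genes run from 902 to 967 CPM in CT-CTD and from 1174 to 1701 CPM in OE-WD.

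The 10 largest increases among altered genes that had a regular symbol, groups without overlap and an average of 1 CPM or more were those of Fbn1, at a mean of 37.7 CPM, and of 9 genes at means of 1.03 to 3.08 CPM. Cd33, a sialic acid receptor of myeloid cells, stood at 0.672, 0.711 and 0.794 CPM in CT-CTD and 2.65, 2.81, 2.59 and 2.81 CPM in OE-WD (log2 fold change 1.90, SE 0.32, edgeR adjusted p = 0.0108). Cd83, a surface protein of activated dendritic and B cells, stood at 0.791, 0.335 and 0.477 CPM in CT-CTD and 1.83, 2.42, 2.59 and 1.45 CPM in OE-WD (log2 fold change 1.94, SE 0.41, edgeR adjusted p = 0.0260). Neither gene's groups overlapped, and the 4 OE-WD values of Cd33 lay within a narrow band. Ms4a4a, a macrophage membrane protein, rose from 0.514, 0.460 and 0.238 CPM to 1.56, 2.0, 1.15 and 1.45 CPM (log2 fold change 1.92, edgeR adjusted p = 0.0373), and the leukocyte myosin Myo1f from 0.514, 0.502 and 0.238 CPM to 1.25, 2.0, 1.02 and 1.69 CPM (log2 fold change 1.83, edgeR adjusted p = 0.0490). Outside blood cells, the hormone Stc1 stood at 0.593, 0.502 and 0.596 CPM in CT-CTD and 1.13, 2.0, 2.34 and 2.45 CPM in OE-WD (log2 fold change 1.80, edgeR adjusted p = 0.0451), and Hcn4, a pacemaker channel, at 1.54, 1.30 and 1.59 CPM in CT-CTD and 3.66, 5.93, 3.66 and 3.86 CPM in OE-WD (log2 fold change 1.53, edgeR adjusted p = 0.0488), with OE-WD 2 well above the other OE-WD libraries. Fam167a (log2 fold change 2.24, edgeR adjusted p = 0.0411), the ubiquitin ligase Rnf125 (log2 fold change 1.64, edgeR adjusted p = 0.0298) and the protease Klk10 (log2 fold change 1.52, edgeR adjusted p = 0.0302) completed these 10. Every one of these calls ended when a single library was left out, and with library totals alone all 9 but that of Cd33 ended. With the replicate block and without robust estimates the calls of Fam167a, Myo1f, Stc1 and Hcn4 ended, and in limma on FPKM that of Hcn4. Cd33 lost its call without CT-CTD 2 or 3 (edgeR adjusted p up to 0.0635), and Cd83 without CT-CTD 2, CT-CTD 3, OE-WD 2 or OE-WD 3 (edgeR adjusted p up to 0.133). Without any 1 library of either group the calls of Fam167a, Ms4a4a, Myo1f, Rnf125 and Hcn4 ended, with edgeR adjusted p up to 0.188, 0.188, 0.216, 0.134 and 0.207. OE-CTD 2 ended the calls of Fam167a, Ms4a4a, Myo1f and Hcn4 too, OE-CTD 3 those of Fam167a, Myo1f and Hcn4, and OE-CTD 4 that of Hcn4. Klk10 lost its call without CT-CTD 1 to 3, OE-WD 3 or OE-WD 4 (edgeR adjusted p up to 0.116), and Stc1 without CT-CTD 1 to 3, OE-CTD 2 or OE-WD 2 to 4 (edgeR adjusted p up to 0.185).

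The listed macrophage markers were higher in 13 of 13 tested, 5 with groups that did not overlap (9.41% of all genes upward), with a median of 0.70. EdgeR altered 0 of them, 6 passed upward at the unadjusted level (5.52% of all genes), DESeq2 called 2, limma on FPKM 0, and edgeR without CT-WD 1 called 3. Summed, the macrophage markers were at 96.4, 58.9 and 52.0 CPM in CT-CTD and 94.1, 154, 96.7 and 105 CPM in OE-WD, led by lysozyme Lyz2, and CT-CTD 1 lay among the OE-WD libraries. Complement C1qb stood at 7.0, 4.39 and 4.01 CPM in CT-CTD and 7.82, 11.6, 8.46 and 9.64 CPM in OE-WD (log2 fold change 0.87, edgeR adjusted p = 0.109) and the protease Ctss at 2.61, 1.80 and 1.71 CPM in CT-CTD and 3.81, 5.72, 4.51 and 4.5 CPM in OE-WD (log2 fold change 1.18, edgeR adjusted p = 0.128). Both genes were higher in each OE-WD library than in each CT-CTD library. Of 6 neutrophil markers 0 passed the filter on low counts, so none of them was tested, and Ly6g was at 0 in the 7 libraries. Of 5 plasma cell markers edgeR altered 0, 1 passed downward at the unadjusted level (1.65% of all genes), DESeq2 called 1 as lower and limma 0, and the median was -0.42, or -0.21 without CT-CTD 2, with 1 called lower without CT-CTD 1, CT-WD 1 or CT-WD 3. That gene was the immunoglobulin heavy chain Igha, at 6.09, 11.1 and 33.8 CPM in CT-CTD and 1.71, 2.56, 1.87 and 1.49 CPM in OE-WD (log2 fold change -3.14, edgeR adjusted p = 0.0672), with CT-CTD 3 far above the rest and a log2 fold change of -2.16 without it. The plasma cell markers summed to 363, 688 and 603 CPM in CT-CTD and 421, 436, 355 and 399 CPM in OE-WD, mostly Ighm at 355, 675 and 567 CPM in CT-CTD and 417, 432, 351.6 and 396 CPM in OE-WD, and the groups overlapped. Interferon-responsive genes (10) and antigen presentation genes (10) had medians of 0.07 and 0.05, with 0 altered by edgeR, DESeq2 or limma and 0 past the unadjusted level. The median of the antigen presentation genes was 0.52 without CT-CTD 1, -0.10 without CT-CTD 2 and -0.08 without CT-CTD 3. For the interferon-responsive genes it was 0.15 without CT-CTD 1 and -0.15 without CT-CTD 3, so neither list held a direction. The part of immune cell RNA in the low-level increases was not tested.

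The altered gene with the smallest adjusted p fell. Syne1 (ENSMUSG00000096054, chromosome 10, 5020917 to 5551482, minus strand), which encodes the nuclear envelope protein nesprin-1 that anchors nuclei in muscle fibres, stood at 104, 133 and 134 CPM in CT-CTD and 68.7, 55.1, 65.6 and 55.1 CPM in OE-WD. The lowest CT-CTD library lay well above the highest of OE-WD (log2 fold change -1.02, SE 0.11, edgeR adjusted p = 0.000607). Spns2 (ENSMUSG00000040447, chromosome 11, 72451638 to 72489904, minus strand), which exports sphingosine-1-phosphate, stood at 90.6, 136 and 156 CPM in CT-CTD and 46.6, 42.9, 48.7 and 43.5 CPM in OE-WD, a narrow band in OE-WD below a wide one in CT-CTD (log2 fold change -1.49, SE 0.18, edgeR adjusted p = 0.00366). On the opposite strand it overlaps Mybbp1a, at a mean of 106 CPM, so the assignment of its reads is uncertain. Mettl21c (ENSMUSG00000047343, chromosome 1, 44009408 to 44020034, minus strand), a protein lysine methyltransferase of muscle, stood at 66.4, 92.7 and 56.4 CPM in CT-CTD and 27.9, 29.9, 30.2 and 26.6 CPM in OE-WD (log2 fold change -1.32, SE 0.17, edgeR adjusted p = 0.00366). These 3 genes and Lama4, alone among the 35 altered genes chosen by rule, kept their calls with each of the 14 libraries left out. Neto2, a kainate receptor partner, stood at 22.3, 35.1 and 38.6 CPM in CT-CTD and 15.4, 10.4, 10.8 and 9.92 CPM in OE-WD (log2 fold change -1.46, SE 0.24, edgeR adjusted p = 0.0124), and the mitochondrial carrier Slc25a30 at 23.9, 28.8 and 40.5 CPM in CT-CTD and 14.1, 13.5, 11.4 and 7.83 CPM in OE-WD (log2 fold change -1.40, SE 0.22, edgeR adjusted p = 0.0112). In both genes each OE-WD library lay below each CT-CTD library. The surface glycoprotein gene Cd24a stood at 265, 269.7 and 378 CPM in CT-CTD and 184, 173, 161 and 154 CPM in OE-WD (log2 fold change -0.86, SE 0.14, edgeR adjusted p = 0.0112). The sialyltransferase St3gal1 stood at 38.8, 75.5 and 71.7 CPM in CT-CTD and 33.8, 28.1, 27.1 and 27.3 CPM in OE-WD (log2 fold change -1.09, SE 0.23, edgeR adjusted p = 0.0324), with CT-CTD 1 just above the OE-WD libraries. At lower levels, Plekhd1 (log2 fold change -1.88, edgeR adjusted p = 0.0153), Crip3 (log2 fold change -1.40, edgeR adjusted p = 0.0251) and Ube2c (log2 fold change -1.23, edgeR adjusted p = 0.0162) fell, and Ube2c, a ubiquitin-conjugating enzyme of mitosis, overlaps the fast fibre troponin gene Tnnc2 on the opposite strand. Tnnc2 was counted at a mean of 0.832 CPM, beside 15102 CPM for Tnnt3, so the assignment of reads at this locus, and with it the fall of Ube2c, is uncertain. Calls ended without CT-CTD 3 for Slc25a30 and Cd24a, without CT-CTD 2 or 3 for Plekhd1, without CT-CTD 2, CT-CTD 3 or OE-WD 2 for Neto2 and Crip3, and without CT-CTD 2 or OE-WD 2 for Ube2c. The edgeR adjusted p then reached 0.0635, 0.0679, 0.0721, 0.0700, 0.112 and 0.103 in that order. St3gal1 lost its call without CT-CTD 2 or 3, OE-CTD 1, 2 or 3, or OE-WD 2, 3 or 4 (edgeR adjusted p up to 0.157), without a filter on low counts, with library totals alone and with the replicate block. Library totals alone also ended the calls of Crip3 and Ube2c, and limma on FPKM that of Crip3.

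Odc1 and Smox fell, and both calls ended in several of the alternatives. Ornithine decarboxylase (Odc1, ENSMUSG00000011179, chromosome 12, 17544794 to 17551505, plus strand), the first enzyme of polyamine synthesis and a known c-Myc target, stood at 488, 759 and 800.3 CPM in CT-CTD and 403, 309, 297 and 263 CPM in OE-WD (log2 fold change -1.10, SE 0.24, edgeR adjusted p = 0.0381). Spermine oxidase (Smox), which breaks spermine down, stood at 318, 662 and 509 CPM in CT-CTD and 256, 236, 226 and 212 CPM in OE-WD (log2 fold change -1.09, SE 0.24, edgeR adjusted p = 0.0445). In both genes CT-CTD 1 was nearest to the OE-WD libraries and the groups did not overlap. Gm7993, annotated as a processed pseudogene, stood at 148, 238 and 248 CPM in CT-CTD and 112, 85.0, 87.7 and 75.4 CPM in OE-WD (log2 fold change -1.23, SE 0.25, edgeR adjusted p = 0.0329), with CT-CTD 1 lowest of its group and OE-WD 1 highest of its own, as in Odc1. Of its 1354 words of 31 bases, 702 (51.8%) also occur in the Odc1 transcript, so reads of one may have been counted for the other and its call is uncertain. Among other Myc target genes, 1 of 14 fell, which was Odc1, against 0.336% of all genes, and the median was -0.07. At the unadjusted level 1 passed upward and 1 downward (5.52 and 1.65% of all genes), DESeq2 called 1 as lower, and limma on FPKM called 0. Odc1 lost its call without CT-CTD 2 or 3, OE-CTD 1, 2 or 3, or OE-WD 2, 3 or 4 (edgeR adjusted p up to 0.177), and Gm7993 without CT-CTD 2 or 3 or OE-WD 2, 3 or 4 (edgeR adjusted p up to 0.157). For Smox the call ended without CT-CTD 2 or 3 or any 1 library of OE-CTD or OE-WD (edgeR adjusted p up to 0.192). The calls of Odc1 and Smox were also absent without a filter on low counts, with library totals alone, in limma on FPKM and with the replicate block, and that of Gm7993 without the filter and with the block.

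Growth lists tied to c-Myc showed few calls. The transgene is driven in endothelial cells, and bulk muscle RNA cannot show what these lists did in those cells alone. Of 26 ribosome biogenesis genes and 11 Myc, Max and Mxd network genes, 0 were altered by edgeR, DESeq2 or limma and 0 passed at the unadjusted level, with medians of -0.02 and 0.07. Without CT-CTD 3 these became 0.01 and -0.02. In the network list Mnt, a Max partner that represses, stood at 17.5, 12.9 and 15.9 CPM in CT-CTD and 21.4, 22.2, 22.5 and 21.1 CPM in OE-WD and passed edgeR's adjusted level under the fold limit (log2 fold change 0.50, SE 0.10, edgeR adjusted p = 0.0258). Cytosolic ribosomal protein genes were lower in 81 of 82, 39 with groups that did not overlap, against 7.23% of all genes downward, and their median was -0.20, between -0.23 and -0.17 over every alternative tried. EdgeR altered 0 of them, 1 passed downward at the unadjusted level, DESeq2 and limma on FPKM called 0, and edgeR called 1 lower without OE-WD 1. Summed, the cytosolic ribosomal protein genes were at 12491, 12227 and 12041 CPM in CT-CTD and 10861, 9989.8, 10459 and 11219 CPM in OE-WD, so each OE-WD library was below each CT-CTD library. Rps20 stood at 230.2, 226 and 202 CPM in CT-CTD and 174, 153, 170.4 and 181 CPM in OE-WD (log2 fold change -0.37, edgeR adjusted p = 0.0523) and Rpl27a at 143, 139.7 and 131 CPM in CT-CTD and 104, 112, 109.9 and 117 CPM in OE-WD (log2 fold change -0.31, edgeR adjusted p = 0.0602). Both were without overlap and above the adjusted threshold. The translation repressor Eif4ebp1 stood at 48.9, 48.0 and 51.6 CPM in CT-CTD and 34.7, 32.0, 36.1 and 34.3 CPM in OE-WD and the growth inhibitor myostatin (Mstn) at 94.3, 126 and 134 CPM in CT-CTD and 84.8, 83.2, 71.5 and 81.5 CPM in OE-WD. In both genes each OE-WD library was lower, and both passed edgeR's adjusted level under the fold limit (-0.53 and -0.56 on the log2 scale, edgeR adjusted p = 0.0305 and 0.0312). Of 9 proliferation genes edgeR altered 0, 1 passed downward at the unadjusted level (1.65% of all genes), and DESeq2 and limma called 0. The proliferation median was 0.27, but 0.09 without CT-CTD 3, 0.72 without CT-CTD 2 and 0.02 in limma.

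Few genes of fuel use passed the test. At the unadjusted level 5.52% of all genes passed upward and 1.65% downward. Of 18 fatty acid oxidation enzymes edgeR, DESeq2 and limma altered 0 and 0 passed at the unadjusted level, with a median of 0.12. Cpt1a, which admits fatty acids to mitochondria, stood at 15.9, 17.2 and 15.5 CPM in CT-CTD and 21.6, 24.3, 23.1 and 19.0 CPM in OE-WD, higher in each OE-WD library and short of the threshold (log2 fold change 0.44, edgeR adjusted p = 0.0758). Of 15 PPAR-responsive genes edgeR altered 0, 2 passed downward at the unadjusted level, DESeq2 called 1 as lower and limma 0, and the median was 0.01, or -0.15 without CT-CTD 2. EdgeR called 2 PPAR-responsive genes lower without OE-WD 1 and 1 without CT-WD 1. The uncoupling protein Ucp3, a PPAR target, stood at 493, 498 and 548 CPM in CT-CTD and 412, 230.4, 307 and 192 CPM in OE-WD (log2 fold change -0.85, edgeR adjusted p = 0.0777), with OE-WD 2 and 4 lowest. Of 16 lipogenic genes edgeR altered 0, 1 passed upward and 1 downward at the unadjusted level, DESeq2 called 1 and limma 0. The lipogenic median was -0.07, but 0.27 without CT-CTD 1, where edgeR called 2 of the lipogenic genes higher, and -0.27 without CT-CTD 3. The fatty acid elongase Elovl5 stood at 14.9, 14.2 and 11.9 CPM in CT-CTD and 19.6, 21.7, 20.2 and 18.9 CPM in OE-WD and passed edgeR's adjusted level under the fold limit (log2 fold change 0.55, edgeR adjusted p = 0.0396). Of 21 cholesterol synthesis and uptake genes edgeR altered 0, 1 passed downward at the unadjusted level, DESeq2 called 1 as lower and limma 0. Members had a median of -0.01, or 0.12 without CT-CTD 1, and edgeR called 1 lower without CT-WD 1.

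In glucose handling, 1 of 19 insulin signaling and glucose uptake genes rose, against 0.899% of all genes, 2 passed upward at the unadjusted level (5.52% of all genes), DESeq2 called 1 and limma on FPKM 0, and the median was -0.03, or 0.09 without CT-CTD 1. The member was hexokinase 1 (Hk1), a hexokinase found in most tissues, at 10.7, 10.8 and 9.41 CPM in CT-CTD and 14.2, 17.4, 16.3 and 16.9 CPM in OE-WD (log2 fold change 0.65, SE 0.12, edgeR adjusted p = 0.0138), with no overlap. Its call ended without CT-CTD 2, CT-CTD 3 or OE-WD 2 (edgeR adjusted p up to 0.0988), with library totals alone and in limma on FPKM. Tbc1d1, a regulator of glucose transporter traffic, stood at 109, 115 and 127 CPM in CT-CTD and 86.3, 68.8, 85.3 and 79.6 CPM in OE-WD and passed edgeR's adjusted level under the fold limit (log2 fold change -0.55, edgeR adjusted p = 0.0436). Of 19 glycolysis and glycogen genes 19 were lower, with a median of -0.11 that ran from -0.19 to -0.10 over the alternatives, 0 were altered by edgeR, DESeq2 or limma, 0 passed at the unadjusted level, and 1 had groups that did not overlap, against 7.23% of all genes downward. Picked on their values outside that list, the muscle fructose bisphosphatase Fbp2 stood at 23.1, 28.1 and 32.6 CPM in CT-CTD and 16.7, 14.3, 18.0 and 16.1 CPM in OE-WD (log2 fold change -0.78, SE 0.13, edgeR adjusted p = 0.0112). The lactate exporter Slc16a3 stood at 237, 312 and 333 CPM in CT-CTD and 174, 192, 186 and 199 CPM in OE-WD (log2 fold change -0.65, SE 0.11, edgeR adjusted p = 0.0101). Both fell, and neither gene's groups overlapped. Of 83 nuclear oxidative phosphorylation genes 64 were lower and 11 had groups that did not overlap, against 16.6% of all genes in either direction, with a median of -0.08 that ran from -0.13 to -0.06 over the alternatives, and 0 passed in edgeR at either level, in DESeq2 or in limma. The 13 mitochondrial DNA genes had a median of 0.16, 0.02 without OE-WD 4, and 0 of them were altered by edgeR, DESeq2 or limma or passed at the unadjusted level. Summed, the mitochondrial DNA genes were at 115349, 99983 and 103190.0 CPM in CT-CTD and 116876, 105951, 100803 and 158473 CPM in OE-WD, with OE-WD 4 apart and the others mixed, and with replicate number as a block their median was -0.0007. Of 9 PGC-1 and ERR genes 1 rose, against 0.899% of all genes, and 1 passed upward at the unadjusted level, DESeq2 called 1 and limma 0. Their median log2 fold change was 0.11, or 0.04 without CT-CTD 3. The member that rose was the orphan receptor Esrrb, at 16.7, 12.05 and 16.5 CPM in CT-CTD and 22.2, 23.2, 23.1 and 23.2 CPM in OE-WD (log2 fold change 0.60, SE 0.12, edgeR adjusted p = 0.0160), with groups that did not overlap, and its call ended without CT-CTD 2, CT-CTD 3 or OE-WD 2 (edgeR adjusted p up to 0.0882), in limma on FPKM and with the replicate block.

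**Figure D4:**
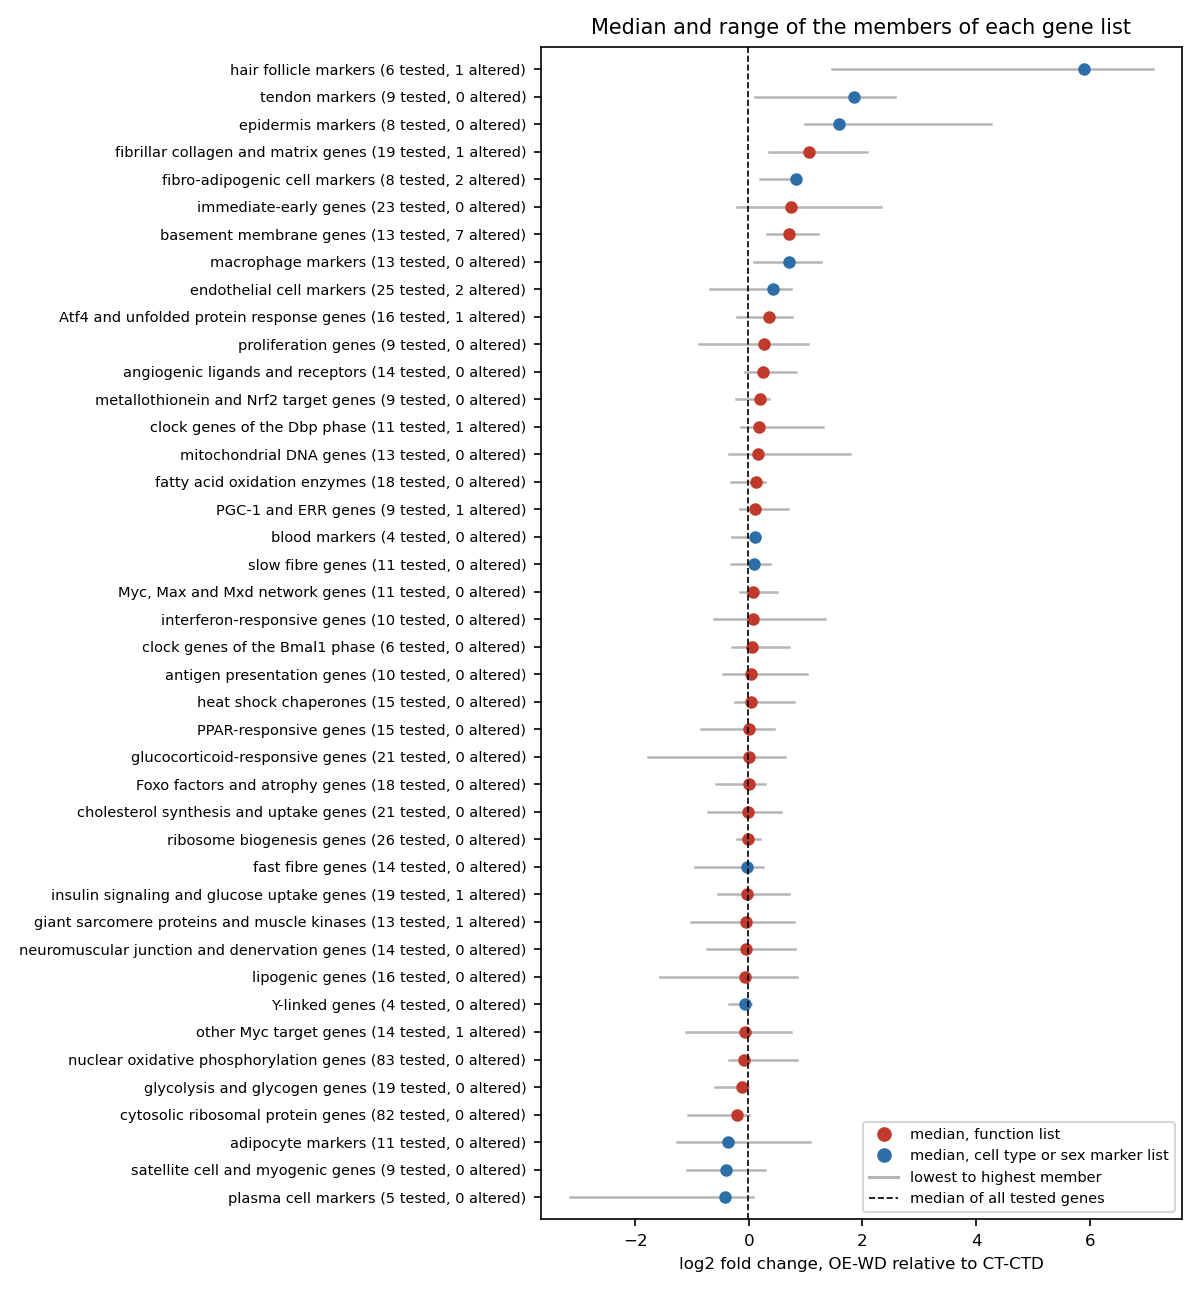
Median log2 fold change of each gene list described here in OE-WD relative to CT-CTD (points), the lowest to highest member (grey lines), and the median of all tested genes (dashed line). Basement membrane genes lie at 0.71 and cytosolic ribosomal protein genes at -0.20, against -0.01 for all tested genes.

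Immediate-early genes, which cells switch on within minutes of a stimulus or of handling, were higher in 21 of 23, 11 with groups that did not overlap (9.41% of all genes upward), and their median was 0.75. EdgeR altered 0 of them, 9 passed upward at the unadjusted level (5.52% of all genes), DESeq2 called 5 and limma on FPKM 0. Junb, a subunit of the AP-1 factor, stood at 18.9, 14.9 and 10.9 CPM in CT-CTD and 41.3, 36.0, 30.3 and 27.8 CPM in OE-WD (log2 fold change 1.18, SE 0.29, edgeR adjusted p = 0.0623), each OE-WD library above each CT-CTD library. Its locus overlaps Prdx2 on the opposite strand, at a mean of 132 CPM, so the assignment of its reads is uncertain. Its partner gene Fosb stood at 1.78, 0.711 and 0.993 CPM in CT-CTD and 9.10, 8.91, 1.83 and 3.45 CPM in OE-WD (log2 fold change 2.32, SE 0.61, edgeR adjusted p = 0.0830), with OE-WD 1 and 2 far above OE-WD 3 and 4. EdgeR called 1 immediate-early gene without CT-CTD 1, OE-CTD 3, OE-CTD 4 or OE-WD 3, 2 without CT-WD 3 and 3 without CT-WD 2. In the clock, 1 of 11 clock genes of the Dbp phase rose, against 0.899% of all genes, 2 passed upward at the unadjusted level (5.52% of all genes), DESeq2 called 2 and limma 1. Their median was 0.18. The member was Nr1d1, a repressor of the clock loop, at 68.1, 66.4 and 66.5 CPM in CT-CTD and 119, 151, 119.5 and 163 CPM in OE-WD (log2 fold change 1.04, SE 0.22, edgeR adjusted p = 0.0320). Its CT-CTD values were nearly equal and its groups did not overlap, but it shares opposite-strand bases with Thra, at a mean of 51.4 CPM. Its call ended without any 1 CT-CTD library or OE-WD 2, 3 or 4 (edgeR adjusted p up to 0.147). EdgeR without CT-WD 1 or CT-WD 3 called 2 clock genes of the Dbp phase, and called 0, Nr1d1 included, without a filter on low counts or with library totals alone. Of 6 clock genes of the Bmal1 phase 0 passed in edgeR at either level, in DESeq2 or in limma, with a median of 0.05, or -0.07 without OE-WD 1. The labels give no time of day for the harvest.

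Of 21 glucocorticoid-responsive genes edgeR altered 0, 1 passed downward at the unadjusted level (1.65% of all genes, with 5.52% upward), DESeq2 called 1 as lower and limma 0. The median of that list was 0.01, or 0.16 without CT-CTD 1 and -0.02 without CT-CTD 2. EdgeR called 1 lower without CT-WD 1 or OE-WD 1, but 1 higher and 0 lower on the 7 libraries alone. The member that passed downward at the unadjusted level was the chaperone Fkbp5, at 83.8, 39.9 and 165 CPM in CT-CTD and 38.5, 23.5, 22.2 and 28.0 CPM in OE-WD (log2 fold change -1.78, SE 0.48, edgeR adjusted p = 0.0959), with CT-CTD 3 highest and CT-CTD 2 nearest to OE-WD, and a log2 fold change of -1.14 without CT-CTD 3. Of 18 Foxo factors and atrophy genes 6 had groups that did not overlap, against 16.6% of all genes in either direction. EdgeR, DESeq2 and limma altered 0 of the 18, 0 passed at the unadjusted level, and the median was -0.003. EdgeR called 1 of them lower without CT-CTD 1 and 2 without OE-WD 1. Of 16 Atf4 and unfolded protein response genes 1 rose, against 0.899% of all genes, 1 passed upward at the unadjusted level, and DESeq2 and limma called 1 each, with a median of 0.36, 0.11 without OE-WD 1. It was Pdia4, a disulfide isomerase of the endoplasmic reticulum, at 11.2, 9.75 and 10.3 CPM in CT-CTD and 21.4, 17.6, 15.1 and 16.6 CPM in OE-WD (log2 fold change 0.76, SE 0.15, edgeR adjusted p = 0.0165), with no overlap. Its call ended without CT-CTD 2, CT-CTD 3 or OE-WD 2 (edgeR adjusted p up to 0.0988), and with library totals alone. Heat shock chaperones (15) and metallothionein and Nrf2 target genes (9) had medians of 0.04 and 0.20, -0.02 and 0.11 without OE-WD 1, with 0 altered by edgeR, DESeq2 or limma and 0 past the unadjusted level. Of 14 neuromuscular junction and denervation genes edgeR altered 0, 1 passed upward at the unadjusted level, DESeq2 called 1 and limma 0. That member was Runx1 (log2 fold change 0.82, edgeR adjusted p = 0.0854), and the median was -0.05, or 0.07 without CT-CTD 3, with 1 called higher without CT-WD 2. Of 13 giant sarcomere proteins and muscle kinases 1 fell, against 0.336% of all genes, which was Syne1, the single member past the unadjusted level and called by DESeq2 and limma, and the median was -0.04. Of 9 satellite cell and myogenic genes edgeR altered 0, 1 passed downward at the unadjusted level, and DESeq2 and limma called 0, with a median of -0.39, or -0.22 without CT-CTD 1, where edgeR called 1 lower.

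Skin genes were present in some muscle libraries. Epidermis markers were higher in 8 of 8 tested, 5 with groups that did not overlap (9.41% of all genes upward), with a median of 1.59, between 1.25 and 2.93 when single libraries were left out. EdgeR altered 0, 4 passed upward at the unadjusted level (5.52% of all genes), DESeq2 called 2 and limma 0, and edgeR called 1 without CT-WD 1. Summed, the epidermis markers were at 46.0, 7.24 and 14.9 CPM in CT-CTD and 21.1, 94.8, 140.4 and 45.1 CPM in OE-WD, so CT-CTD 1 lay above OE-WD 1 and 4, and Krt5 was the most abundant by FPKM. Of 11 hair follicle markers 6 passed the filter on low counts, and summed the list was at 0.791, 0.837 and 0.794 CPM in CT-CTD and 1.36, 1.68, 15.6 and 52.5 CPM in OE-WD. Krt71, the most abundant, stood at 0, 0 and 0.278 CPM in CT-CTD and 0, 0, 2.42 and 12.7 CPM in OE-WD, most of it in OE-WD 4, and Krt31 and Krt86 were at 0 in CT-CTD. Members at or near 0 in CT-CTD passed the filter through the libraries that held them, so no count of calls in the hair follicle markers is set against all genes. The median of the hair follicle markers tested was 5.89, but 1.35 without OE-WD 4, 1.51 without OE-WD 3 and 1.47 without OE-CTD 3. With members at or near 0 in CT-CTD, these medians depend on the small default prior count of edgeR's fit. They are therefore not exact folds. Padi3, an enzyme of hair and skin, rose, at 0.593, 0.795 and 0.318 CPM in CT-CTD and 1.32, 1.58, 1.45 and 1.97 CPM in OE-WD (log2 fold change 1.47, SE 0.35, edgeR adjusted p = 0.0425). Its groups did not overlap, and its call ended without any 1 CT-CTD library, OE-CTD 2 or OE-WD 2, 3 or 4 (edgeR adjusted p up to 0.201), with library totals alone and with the replicate block. The part of skin RNA in genes such as Klk10, S100a3 and S100a14 was not tested. Adipocyte markers (11) had a median of -0.37, 0.27 without CT-CTD 1, and summed they were at 599, 332 and 254 CPM in CT-CTD and 284, 337, 287 and 241 CPM in OE-WD, led by Fabp4, with CT-CTD 1 highest. Blood markers (4 tested, led by Hba-a1) had a median of 0.11, or -0.20 without OE-WD 2, and summed to 201, 277 and 191 CPM in CT-CTD and 191, 382, 156 and 232 CPM in OE-WD. In both of these lists 0 genes were altered by edgeR, DESeq2 or limma, 0 passed at the unadjusted level, and the groups overlapped in the sums.

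The genes that the study's transcriptome text names were followed here in the same way, and in this pair 0 of them were altered in edgeR's test. Zbtb16, a zinc finger repressor, stood at 82.1, 79.5 and 98.8 CPM in CT-CTD and 131, 90.3, 89.5 and 89.5 CPM in OE-WD (log2 fold change 0.21, SE 0.15, edgeR adjusted p = 0.556), with OE-WD 1 the one library apart. The acyl-CoA ligase Acsl3 stood at 39.2, 29.1 and 42.4 CPM in CT-CTD and 31.5, 30.3, 27.8 and 29.4 CPM in OE-WD (log2 fold change -0.31, edgeR adjusted p = 0.354). The Rab regulator Rabif stood at 53.4, 36.9 and 26.2 CPM in CT-CTD and 44.2, 29.3, 39.7 and 31.1 CPM in OE-WD (log2 fold change -0.11, edgeR adjusted p = 0.901). The groups overlapped in each of these genes. Rrad, a GTPase that restrains calcium channels, stood at 3.36, 29.6 and 11.4 CPM in CT-CTD and 12.6, 9.99, 12.5 and 8.56 CPM in OE-WD, a range within CT-CTD that spanned all 4 OE-WD values (log2 fold change -0.43, edgeR adjusted p = 0.790). The cytokine brake Socs3 stood at 7.79, 3.18 and 1.51 CPM in CT-CTD and 3.46, 5.65, 3.57 and 2.77 CPM in OE-WD (log2 fold change -0.10, edgeR adjusted p = 0.955), and the lipoprotein lipase inhibitor Angptl4 at 24.7, 23.9 and 19.0 CPM in CT-CTD and 34.8, 18.9, 22.0 and 15.1 CPM in OE-WD (log2 fold change 0.01, edgeR adjusted p = 0.994). The transcription factor Foxo1 stood at 27.6, 16.2 and 26.0 CPM in CT-CTD and 23.1, 19.0, 20.4 and 23.1 CPM in OE-WD (log2 fold change -0.12, edgeR adjusted p = 0.887). All 3 overlapped between the groups. Without CT-CTD 2 the log2 fold change of Rrad was 0.56, and without CT-CTD 1 that of Socs3 was 0.71. S100a14 stood at 1.03, 0.0418 and 0.159 CPM in CT-CTD and 0.311, 1.33, 1.40 and 0.844 CPM in OE-WD (log2 fold change 1.23, edgeR adjusted p = 0.627). The ligand Wnt10a stood at 0.356, 0.209 and 0.0794 CPM in CT-CTD and 0.350, 0.421, 0.808 and 0.482 CPM in OE-WD (log2 fold change 1.23, edgeR adjusted p = 0.297), and in both genes CT-CTD 1 lay among the OE-WD values. Without CT-CTD 1 the log2 fold change was 3.18 for S100a14 and 1.79 for Wnt10a, and without CT-CTD 2 that of S100a14 was 0.71, while Wnt10a had 0.84 without CT-CTD 3. S100a3, a calcium-binding protein of hair, had counts of 0, 0 and 0 in CT-CTD and 4, 1, 12 and 38 in OE-WD and did not pass the filter. Against a floor of 3 counts per CT-CTD library the OE-WD mean was higher by at least 4.60-fold, or by at least 1.93-fold without OE-WD 4, and the bound covers counting error only.

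The same model gives each other pair of groups, and those that include CT-CTD or OE-WD share its libraries, so their values are set side by side without a count of overlap. For the 139 genes that rose here, the median log2 fold change was 0.74 in OE-CTD against CT-CTD, 0.31 in CT-WD against CT-CTD, 0.54 in OE-WD against CT-WD and 0.11 in OE-WD against OE-CTD. These genes were chosen on OE-WD against CT-CTD, which bears on every one of these medians. For the 52 that fell, the medians were -0.91, -0.18, -0.77 and 0.05 in the same order. Basement membrane genes had a median of 0.64 in OE-CTD against CT-CTD and 0.01 in CT-WD against CT-CTD. Fibrillar collagen and matrix genes had 1.08 and 0.33, and endothelial cell markers 0.26 and 0.22, in that order. Immediate-early genes had 0.81 and 0.92, and cytosolic ribosomal protein genes -0.09 and 0.11. For Zbtb16 the log2 fold change was -1.02 in OE-CTD against CT-CTD and 0.74 in CT-WD against CT-CTD, beside 0.21 in OE-WD against CT-CTD. In OE-WD against OE-CTD the values were 1.23 for Zbtb16, 0.65 for Acsl3, 1.03 for Rabif and -0.65 for Rrad, and in OE-WD against CT-WD they were -0.53, 0.17, -0.21 and -0.55, so Zbtb16 and Rabif ran in opposite directions in these pairs. Acsl3 and Rabif had -0.96 and -1.14 in OE-CTD against CT-CTD, beside -0.31 and -0.11 in OE-WD against CT-CTD. The group sizes by diet in the study's text differ from the labels, and an exchange of the names CT-WD and OE-CTD would leave OE-WD against CT-CTD as it stands but would swap the values of those pairs. In OE-WD relative to CT-WD, the study's text reports Zbtb16, Acsl3 and Rabif as upregulated and Rrad as downregulated. By the labels, OE-WD against OE-CTD had those directions in each of these genes, while OE-WD against CT-WD had Zbtb16 and Rabif lower. These directions, like the group sizes, are those that exchanged names would give. The names CT-WD and OE-CTD are therefore in doubt, and no value of this paragraph is assigned to genotype or to diet.

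Promoter letters were read for the named genes from RefSeq on GRCm38.p6, in windows of 250 bases before to 50 after the start, which 78 of the 110 named genes and 24 of the 35 altered named genes had. The E-box CACGTG, a palindrome that Myc with Max and also Clock with Bmal1 can bind, occurred in a promoter of 8.09% of 27025 genes, in 7 of the 78 (8.97%) and in 0 of the 24. The 7 were Fkbp5, Elovl5, Hsd17b7, Atp5l, Wdr43, Mnt and Runx1. The D-box TTATGCAA, read on both strands, occurred in a promoter of 0.888% of the genes and in 2 of the 78 (2.56%), Pdgfra and Krt10, of which Pdgfra was altered. The palindromic consensus of the glucocorticoid response element, read on both strands, occurred in a promoter of 0.0111% of the genes and in 0 of the 78. The Pdgfra window, at chr5:75152001-75152300 on the plus strand, is shown because among the 24 it alone held any of these motifs, and capitals at positions 133 to 140 mark the D-box, which reads on the opposite strand. A match is a description of letters only.
Pdgfra promoter: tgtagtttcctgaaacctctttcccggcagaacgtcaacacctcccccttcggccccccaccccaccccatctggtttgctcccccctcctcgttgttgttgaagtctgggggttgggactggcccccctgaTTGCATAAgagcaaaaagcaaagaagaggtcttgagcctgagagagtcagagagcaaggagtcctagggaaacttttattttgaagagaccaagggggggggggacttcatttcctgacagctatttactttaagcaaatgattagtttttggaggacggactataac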

How the data were processed

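RNA-seq of 14 mouse skeletal muscle libraries was read from the gene tables, and libraries were grouped by their labels, 4 OE-WD and 3 CT-CTD for the comparison and the other 7 for the shared fit. The authors deposited counts, the reads assigned to each of 54532 genes without normalization. A further deposited table holds FPKM, counts scaled by the authors to gene length and to a library total of 79.9 to 98.0% of the summed counts. The submitters' processing notes name HISAT2 2.0.5, featureCounts 1.5.0-p3 and the build mm10, the strand setting is not stated, and reads were not analysed here. Of 54495 identifiers shared with GENCODE M21, 98.3% had the same position, so coordinates are on GRCm38.

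Counts were tested in edgeR 4.0.16 (R 4.3.3) with TMM scaling, the filterByExpr filter and a robust quasi-likelihood fit of 4 group means on 14 libraries, with Benjamini-Hochberg adjustment over 15458 tested genes. The filter removed 0.0467 to 0.0694% of a library's counts. Altered genes had an adjusted p-value under 0.05 and a fold above 1.5, which is 0.585 in log2 units. Fold changes came from this fit with edgeR's default prior count. A prior count of 2 was used only for the log2 CPM behind the principal components and the correlations between libraries. Library depth was 22033140 to 27698046 counts in the 7 libraries, and the biological coefficient of variation was 17.0%. Between replicates, chi-square divided by its degrees of freedom was 17.6 to 28.2 in CT-CTD and 8.76 to 44.3 in OE-WD, above counting noise. The pipeline was tested on simulated data with 200 changed genes of at least 1 CPM on average. At 1.5-fold, 34% of them passed edgeR's adjusted level and 53 were called altered. At 2-fold 154 were called, and at 3-fold 184. An absent call near the fold limit therefore says little.

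The named genes were those the study's transcriptome text names, and the 10 largest increases and 10 largest decreases among altered genes with a regular symbol, groups that do not overlap and 1 CPM or more on average. To these were added the 4 altered genes of highest mean FPKM, up to 3 altered members of each list by smallest p or else up to 2 members, and the markers that define a cell type. Members and lists were chosen with earlier results of these data known, so lists are described by counts and medians and were not tested as sets.

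The alternatives tried were DESeq2 1.42.0, the 7 libraries alone, no filter, a mean of at least 1 CPM, no TMM, limma 3.58.1 on log2 FPKM with a pseudocount of 1 and a mean FPKM of at least 0.5, unadjusted p, a fold over 2, replicate number as a block, and each library left out in turn. A fit without robust estimates was added after the data were seen. Promoters were read from RefSeq and figures drawn in Python 3.11.15 with matplotlib 3.10.9.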

Additional observations from a re-analysis of the deposited data

Results flagged for a closer look

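In each named gene with 4 OE-WD libraries, the gap between the highest or lowest library and its nearest neighbour was set against the group's whole range. The gap was unusually wide in 11 of the 110 genes, where chance gives about 1 in 20. Groups of 3 libraries were not examined in this way.

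OE-WD 1 stood apart in 6 genes. It had 9.03 CPM of Myc where the lowest of the group was 5.22 and the median 5.68 CPM, and 131 CPM of Zbtb16 where they were 89.5 and 89.9 CPM. It had 15.4 CPM of Neto2 (lowest 9.92 and median 10.6 CPM), 33.8 CPM of St3gal1 (lowest 27.1 and median 27.7 CPM) and 1.01 CPM of the interferon gene Ifit1 (lowest 0.562 and median 0.635 CPM). In Esrrb it was the low library, at 22.2 CPM against a median of 23.1 CPM.

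OE-WD 2 was high in Hcn4, at 5.93 CPM where the median was 3.76 CPM, and in Pdgfra, at 26.5 CPM where it was 18.5 CPM. OE-WD 3 was low in Runx1, at 3.87 CPM against a median of 4.70 CPM. OE-WD 4 was low in the sterol enzyme gene Fdft1, at 49.3 CPM against 55.5 CPM, and in the complex I gene Ndufc2, at 48.3 CPM against 57.9 CPM.

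The cause of these values was not tested. The calls of Hcn4, Pdgfra, Neto2, St3gal1 and Esrrb each ended without at least 1 of these libraries or of their controls, as given for each gene in the report.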

How the results depend on the processing

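For genes altered in OE-WD relative to CT-CTD the main count was 191 (139 higher, 52 lower). It was 492 (390, 102) in DESeq2, 340 (276, 64) in edgeR on the 7 libraries alone, 48 (25, 23) without TMM, 76 (53, 23) in limma on FPKM, 1109 (854, 255) at an unadjusted p-value under 0.05 and 63 (37, 26) at a fold over 2. It stayed within 1.5 times the main count without a filter (213), at a mean of at least 1 CPM (199), with replicate number as a block (243, of which 140 shared with the main 191) and without robust estimates (195, chosen after the data were seen). With single libraries left out, genes altered ran from 17 to 380, genes upregulated in OE-WD relative to CT-CTD from 9 to 308, and genes downregulated in OE-WD relative to CT-CTD from 8 to 90. The shares of all genes set beside list counts in the report are those of the main fit. List counts under another setting are to be read beside that setting's total. The 191 genes kept the sign of their change with each of the 14 libraries left out, where a gene no longer tested counted as kept. In 189 of them the OE-WD and CT-CTD libraries did not overlap. Leaving out a single library could hardly reverse a sign there, so the kept signs add no support. The loss of calls follows in part from fewer samples, and otherwise the cause was not tested. Of 2483 pairs of a named gene and an alternative other than the fold over 2, 2195 kept direction and side of the threshold, 208 lost the call (32 genes), 64 gained it (20 genes) and 16 changed sign (10 genes, none called). With single libraries left out, the log2 fold change ran from -0.32 to 0.18 for Rabif, -0.92 to 0.56 for Rrad, -0.50 to 0.71 for Socs3, -0.32 to 0.011 for Foxo1, -0.27 to 0.16 for Angptl4, -1.71 to 0.066 for Pck1, -0.62 to 0.22 for Ncmap, -0.64 to 0.039 for Alas2, -0.14 to 0.36 for Hbb-bt and -0.13 to 0.0048 for Eif2s3y. In limma on FPKM, Socs3 was at 0.027 and Angptl4 at -0.033. With the replicate block, whose numbers showed no pairing, Socs3 was at 0.28 and Ncmap at 0.031. Small differences are limited by the number of libraries and the spread between them, and genes of a few counts, such as the hair follicle markers, by depth as well.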
